A study of Paralichthys olivaceus with 24 samples.

Results

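Poly(I:C)-treated Japanese flounder, the flatfish Paralichthys olivaceus, sampled after 3 h at 25 °C were compared directly, in spleen, with poly(I:C)-treated fish sampled after 24 h at 15 °C. The 6 arrays of this comparison, 3 in each group, were taken by their titles from the 24 arrays of the series, and all 14481 non-control probes entered. The same contrast without poly(I:C) was read from 6 further arrays, 3 of fish given DEPC-treated water and kept at 25 °C for 3 h and 3 of fish given DEPC-treated water and kept at 15 °C for 24 h. Every array carried Cy3-labelled cRNA from total spleen RNA, 1 sample per array. Temperature and time both differ between the groups, so within either contrast the 2 cannot be told apart. Strain, age and poly(I:C) dose are not given in the sources used here, and nothing in the labels ties each array to its own fish. The p-values therefore measure how far these samples spread, which may be technical. The remaining 12 arrays supplied the contrast with temperature reversed, poly(I:C) at 15 °C for 3 h against poly(I:C) at 25 °C for 24 h, and their water counterparts.

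Poly(I:C) is a synthetic double-stranded RNA that vertebrate cells sense much as they sense the RNA of a replicating virus, through Toll-like receptor 3 and the RIG-I-like receptors of the cytoplasm. Sensing leads to type I interferon, which in turn raises a broad set of interferon-stimulated genes. The spleen is a major site of immune cells in bony fish, and because a fish takes the temperature of its water, the speed of such a programme can vary with the temperature at which the fish is held. Targets of probes are given in the files as contig codes or database accessions. None of the 14478 distinct targets was found in the gene table of NCBI for assembly ASM2471397v2, so genes, pathways and the marker genes of spleen could not be read, and probes are described by their identifiers. In whole spleen, fewer cells of a type and less RNA per cell cannot be told apart.

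Signals below are log2 values relative to the 75th percentile of the same array, called log2 signals. Of the 14481 probes, 13377 reached a signal well above background on every array of 1 or more groups and were tested with limma, and 1104 were left out. A probe was called at a Benjamini-Hochberg adjusted p under 0.05. The 75th percentile of the 12 arrays of the 4 groups lay between 348.1 and 666.8 signal units. The share of probes well above background was 87.7% to 91.1% in poly(I:C) at 25 °C for 3 h, 83.6% to 94.2% in poly(I:C) at 15 °C for 24 h, 85.5% to 86.8% in water at 25 °C for 3 h and 78.4% to 83.9% in water at 15 °C for 24 h. The median SD of a probe between the 3 arrays of a group was 0.191, 0.174, 0.272 and 0.17 log2 in the same order, widest in water at 25 °C for 3 h. The files place the arrays on 3 slides. Poly(I:C) at 25 °C for 3 h lay on slide 2 and poly(I:C) at 15 °C for 24 h on slide 1, and water at 25 °C for 3 h lay on slide 3 and water at 15 °C for 24 h on slide 2. No slide held both groups of either contrast, so no within-slide value exists, and each contrast is given below also with a slide block, which is estimated through the groups that span slides.

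The 2 poly(I:C) groups sat together on the first principal component of all 24 arrays (36% of the variance) and apart on the next 3. Their scores on component 1 were 72.6 ± 4.91 at 25 °C for 3 h and 66.6 ± 3.57 at 15 °C for 24 h (SD, n = 3 each). On component 2 (17.7%) they were 26.9 ± 7.09 and -12.0 ± 4.64, and the 2 water groups took the same order, 34.9 ± 16.4 at 25 °C for 3 h and -29.5 ± 8.03 at 15 °C for 24 h. All 4 group means at 25 °C were positive on component 2 and all 4 at 15 °C were negative, but single arrays did not all follow. In poly(I:C) at 25 °C for 24 h, the array on slide 2 scored -5.15 and the 2 on slide 3 scored 22.4 and 21.4. In water at 15 °C for 3 h, which also spans slides, the 2 arrays on slide 1 scored -16.1 and -39.9 and that on slide 2 scored -41.3. The part of slide in component 2 was not tested. With normexp background correction the components were computed anew. On the second of them the gap between the 2 poly(I:C) groups was 5.96, against 38.9 on component 2 of the processed signal. Whether these are the same axis was not tested.

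Component 3 (8.15%) set apart the poly(I:C) groups alone. The score was 22.1 ± 2.91 in poly(I:C) at 25 °C for 3 h and -29.1 ± 2.66 in poly(I:C) at 15 °C for 24 h, while the means of all 4 water groups lay between -2.77 and 7.49. Poly(I:C) at 15 °C for 3 h also scored high, at 31.0 ± 5.70, and poly(I:C) at 25 °C for 24 h low, at -26.5 ± 1.80 (SD, n = 3 each). The poly(I:C) groups were thus ordered by time on this component at both temperatures. On component 4 (6.03%) the scores were 17.9 ± 8.12 and -21.7 ± 3.46, with poly(I:C) at 25 °C for 24 h at 18.5 ± 5.06 and poly(I:C) at 15 °C for 3 h at -7.68 ± 6.65.

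**Figure D1:**
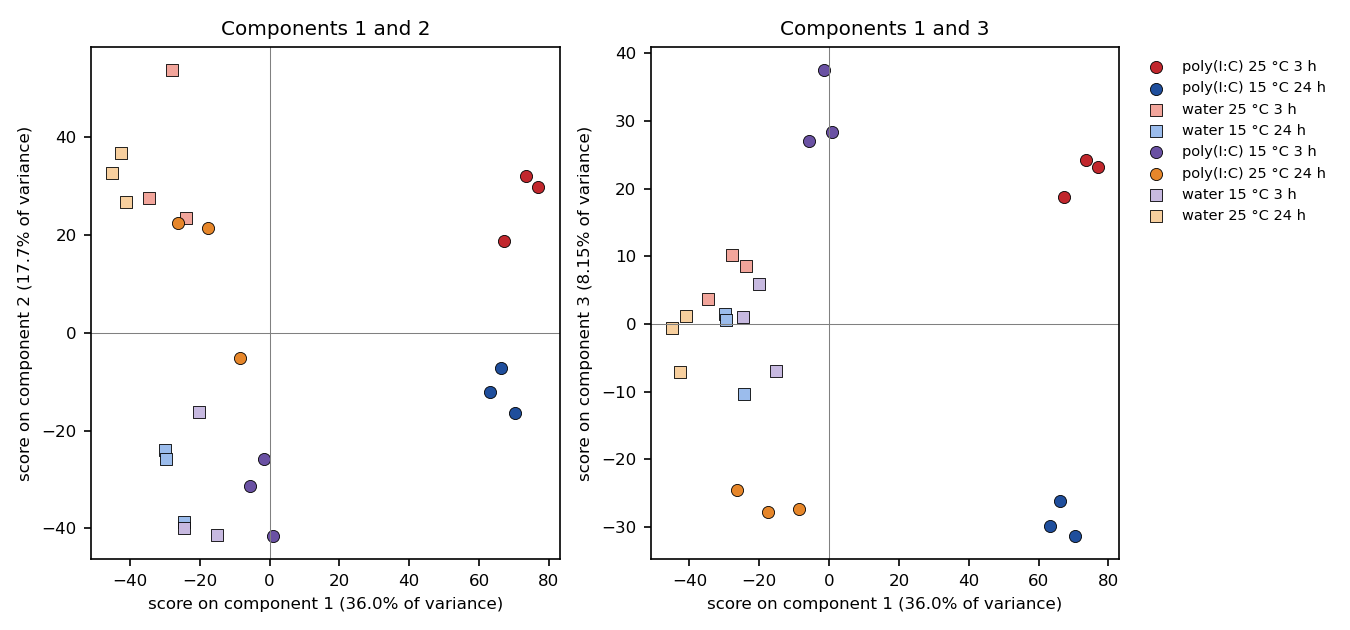
Scores of the 24 arrays on principal component 1 (horizontal axis, both panels) against component 2 (left) and component 3 (right), 1 point per array, circles for poly(I:C) and squares for water. Poly(I:C) at 25 °C for 3 h (red) and at 15 °C for 24 h (dark blue) overlap on component 1 and lie on opposite sides of 0 on components 2 and 3, and the water arrays stay between the poly(I:C) groups on component 3.

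By the size of their difference, the 2 poly(I:C) groups were closer to each other than either was to another poly(I:C) group. The root mean square difference of group means over 13331 probes was 0.675 log2 between them. Poly(I:C) at 25 °C for 3 h lay 0.905 from poly(I:C) at 15 °C for 3 h and 0.931 from poly(I:C) at 25 °C for 24 h, and poly(I:C) at 15 °C for 24 h lay 0.876 from poly(I:C) at 25 °C for 24 h and 0.845 from poly(I:C) at 15 °C for 3 h. The 2 water groups differed by 0.673, about as much as the 2 poly(I:C) groups. Correlations across probes were 0.956 to 0.964 between the arrays of the 2 poly(I:C) groups and 0.983 to 0.989 between arrays of 1 group.

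Between the 2 poly(I:C) groups, 4557 of 13377 probes (34.1%) were called, 1760 (13.2%) with the higher signal and 2797 (20.9%) with the lower signal at 25 °C for 3 h. The differences were mostly small. Among called probes the median was 0.78 log2 for those higher and -0.73 for those lower, and the median SE over all tested probes was 0.20. Called and at least 2-fold different were 1251 (9.35% of tested probes), 583 higher (4.36%) and 668 lower (4.99%). Differences of at least 4-fold were fewer and mostly upward, 122 higher and 52 lower. Replicates of the 2 groups did not overlap for 6843 probes (51.2%), 2828 higher (21.1%) and 4015 lower (30%), and those of the 2 water groups for 5403 (40.4%), 2935 higher (21.9%) and 2468 lower (18.4%). The balance of directions depended on the scaling, since the median difference of all probes was -0.087 log2 with 75th percentile scaling and 0.056 with median scaling, under which 2504 probes were higher and 1888 lower, and quantile scaling gave 1796 higher and 2373 lower. With a slide block 1430 were called, 689 higher and 741 lower, and 98.6% of the 4557 probes kept their direction at a median size of 0.735 log2, against 0.747 without the block, while the median SE over all tested probes was 0.356. In the water contrast the size of called probes fell further with the block, from 0.786 to 0.612 log2. With normexp 1447 were called.

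Few probes were measured in only 1 of the 2 poly(I:C) groups. Well above background on all 3 arrays at 25 °C for 3 h and on none at 15 °C for 24 h were 26 probes, 24 of them called, and the reverse held for 42 probes, 34 of them called. In water the same counts were 278 and 12, of which 232 and 11 were called. All are counts among 13377 tested probes, of which 34.1% were called in poly(I:C) and 29.1% in water. Probes picked as bright on 3 arrays and dim on 3 of the same contrast are mostly called by that choice. The share of probes well above background was itself lower in water at 15 °C for 24 h (78.4% to 83.9%) than in water at 25 °C for 3 h (85.5% to 86.8%).

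The 2 probes with the largest positive difference were at or near background at 15 °C for 24 h. Probe CUST_13955_PI426483990 (contig JFC27041_1_code) had log2 signals of 0.09, 1.08 and 1.20 in poly(I:C) at 25 °C for 3 h, against -5.40, -5.25 and -4.62 in poly(I:C) at 15 °C for 24 h, where it was well above background on 1 of 3 arrays. The groups did not overlap, and the difference was 5.88 log2 (SE 0.50, limma adjusted p = 1.1e-07). In water no array of either group had it well above background, and at 25 °C for 3 h it was at least 39.6-fold higher with poly(I:C) than with water. Such a bound sets the mean of the brighter group against, on each array of the dimmer group, the higher of the probe's own signal and the lowest signal that was well above background. Probe CUST_11794_PI426483990 (contig JFC28092_1_code) had -0.71, -0.68 and 0.71 in poly(I:C) at 25 °C for 3 h, against -6.64, -6.31 and -5.31 in poly(I:C) at 15 °C for 24 h, none of these 3 well above background, and was at least 31.3-fold higher (limma adjusted p = 3.0e-06). This probe was also higher in water at 25 °C for 3 h, where it was well above background on 2 of 3 arrays (-3.95 ± 0.80), against none in water at 15 °C for 24 h (-6.71 ± 0.13, SD, n = 3 each). As a bound, it was at least 1.41-fold higher in water at 25 °C for 3 h.

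The 2 probes with the largest negative difference were bright at 15 °C for 24 h. Probe CUST_10148_PI426483990 (contig JFC14084_1_code) had -4.44, -3.74 and -3.83 in poly(I:C) at 25 °C for 3 h, against -0.63, -0.30 and -0.49 in poly(I:C) at 15 °C for 24 h, a difference of -3.53 log2 (SE 0.22, limma adjusted p = 3.9e-09). All 6 arrays were well above background and the groups did not overlap. Probe CUST_12463_PI426483990 (contig JFC19128_1_code) had -4.94, -4.56 and -2.79, against -0.53, -0.80 and -0.57, a difference of -3.46 log2 (SE 0.44, limma adjusted p = 1.0e-05). Its 3 arrays at 25 °C for 3 h were spread widely, 1 of them not well above background, yet all lay below the 3 at 15 °C for 24 h. In water it did not differ beyond the error (-0.27, SE 0.44, limma adjusted p = 0.68), with means of -1.87 ± 0.15 at 25 °C for 3 h and -1.60 ± 0.46 at 15 °C for 24 h (SD, n = 3 each).

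Of the poly(I:C) differences, 32.5% were also called in water with the same sign. In the water contrast 3890 probes (29.1%) were called, 2223 (16.6%) with the higher signal and 1667 (12.5%) with the lower signal at 25 °C for 3 h. Of the 1760 probes higher between the poly(I:C) groups, 578 (32.8%) were also higher in water, 56 (3.18%) were lower and 1126 (64%) were not called there. Of the 2797 lower, 901 (32.2%) were also lower in water, 142 (5.08%) were higher and 1754 (62.7%) were not called. The 2 contrasts share no array, although each probe's spread was estimated from all 24. Same-direction calls thus stood at above the background shares of 16.6% and 12.5%, and opposite calls stood below them. Across the 13377 probes the 2 contrasts had a Pearson r of 0.38 and a Spearman rho of 0.39, and across the 4557 called probes 0.57 and 0.54, given as descriptions since probes on an array share its RNA and its slide. With a slide block the water contrast had 296 calls and 87 probes were called in both contrasts with the same sign, against 1479 without the block, 283 with normexp and 786 when each contrast was fitted on its own groups.

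Read from the water contrast, 26% of its higher probes were also higher between the poly(I:C) groups, against 13.2% of all probes, and 54% of its lower probes were also lower, against 20.9% of all.

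**Figure D2:**
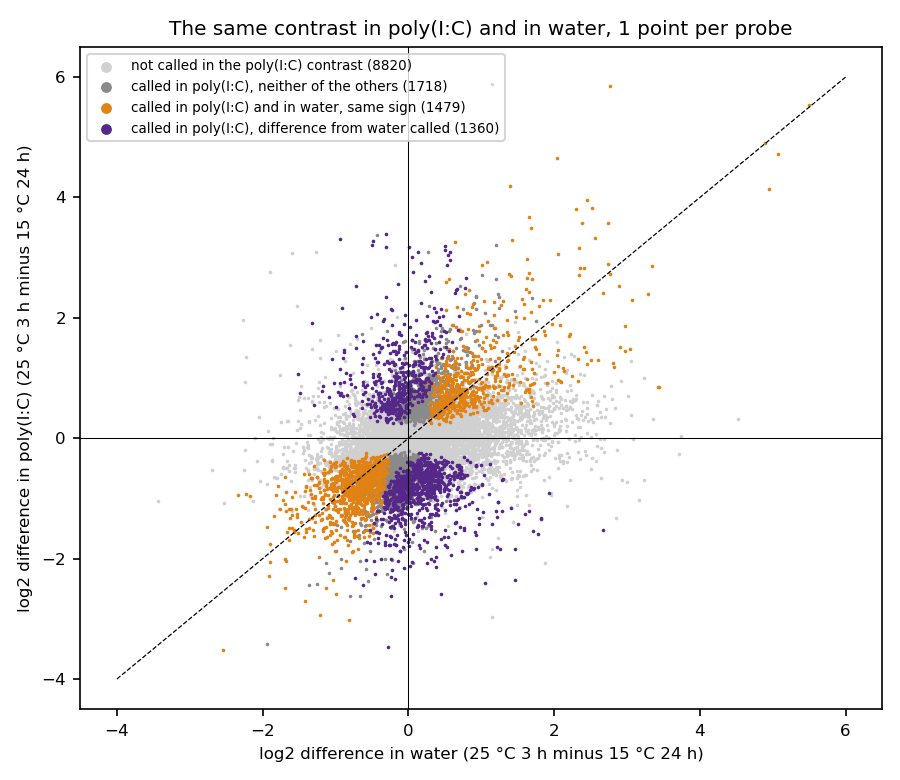
Log2 difference of each tested probe between poly(I:C) at 25 °C for 3 h and poly(I:C) at 15 °C for 24 h (vertical axis) against the difference between water at 25 °C for 3 h and water at 15 °C for 24 h (horizontal axis), with the dashed line where both are equal. Orange points (1479) were called with the same sign in both and follow the diagonal, violet points (1360) are the other probes that were called in poly(I:C) and whose difference from water was called too, and dark grey points (1718) were called in poly(I:C) and in neither of the other tests.

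Probe CUST_7260_PI426483990 (contig JFC24307_1_code) differed alike in direction with poly(I:C) and with water. It had -1.30, -1.04 and -0.94 in poly(I:C) at 25 °C for 3 h, against -6.14, -7.15 and -6.62 in poly(I:C) at 15 °C for 24 h. In water it had -0.81, -1.80 and -0.05 at 25 °C for 3 h, against -6.56, -6.17 and -6.40 at 15 °C for 24 h. It was well above background on every 25 °C 3 h array and on no 15 °C 24 h array of either treatment, at least 17.2-fold higher with poly(I:C) and at least 11.8-fold higher with water. Both are bounds, so the 2 differences could not be set against each other in size. The largest negative differences that were shared with water belonged to CUST_10148_PI426483990, which was -2.54 log2 (SE 0.22) in water, and to CUST_9137_PI426483990 (contig JFC06955_1_code).

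CUST_9137_PI426483990 had -4.49, -4.15 and -5.27 in poly(I:C) at 25 °C for 3 h, the last not well above background, against -1.98, -1.07 and -1.78 in poly(I:C) at 15 °C for 24 h. In water the means were 0.03 ± 0.17 at 25 °C for 3 h and 0.84 ± 0.31 at 15 °C for 24 h (SD, n = 3 each). Its log2 difference was -3.02 (SE 0.29, limma adjusted p = 4.3e-07) in poly(I:C) and -0.81 (SE 0.29, limma adjusted p = 0.042) in water. It was below water in both poly(I:C) groups, and further below at 25 °C for 3 h.

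The difference of the 2 contrasts, which is also the poly(I:C) response at 25 °C for 3 h minus that at 15 °C for 24 h, was called for 2430 probes (18.2%), 806 positive (6.03%) and 1624 negative (12.1%). Its median over all probes was -0.13 log2, and with median scaling, where that median was 0.046, 1286 were positive and 949 negative. Of the 4557 probes called between the poly(I:C) groups, 1471 (32.3%) were called in this difference with the same sign, 550 higher and 921 lower, and these shares come from overlapping arrays. For 3050 probes (66.9%) the difference was not called, which does not show that poly(I:C) and water differed alike there: 1332 of them were called in water with the same sign and 1718 were not called in water. The median size of a called difference from water was 1.01 log2, and its median SE over all probes was 0.28. With a slide block 190 probes were called, with the slide as a random block 1530, and with normexp 295.

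Probe CUST_9380_PI426483990 (contig JFC19775_1_code) was named for its positive difference from water and was measured in only 1 of the 4 groups. It had -1.85, -0.85 and -0.64 in poly(I:C) at 25 °C for 3 h, against -5.92, -6.93 and -6.88 in poly(I:C) at 15 °C for 24 h. In water it had -5.86, -6.83 and -5.07 at 25 °C for 3 h and -6.70, -5.77 and -6.55 at 15 °C for 24 h. Of these 12 arrays it was well above background only on the 3 of poly(I:C) at 25 °C for 3 h, where it was at least 16.9-fold higher than in poly(I:C) at 15 °C for 24 h and at least 10.6-fold higher than in water at 25 °C for 3 h. Since the other 3 groups had no array well above background, the size of its difference from water is not given as a measured value, and the fitted difference was not called with normexp (limma adjusted p = 0.22).

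Among probes whose poly(I:C) replicates did not overlap, the largest negative differences from water belonged to 2 that lay lower at 25 °C for 3 h with poly(I:C) and higher at 25 °C for 3 h with water. Probe CUST_6389_PI426483990 (contig JFC00827_1_code) had -3.49, -3.64 and -4.02 in poly(I:C) at 25 °C for 3 h, against -1.98, -2.28 and -2.33 in poly(I:C) at 15 °C for 24 h. In water it had -1.44, -1.98 and -1.61 at 25 °C for 3 h, against -3.89, -4.61 and -4.54 at 15 °C for 24 h, where 1 of 3 arrays was well above background. The 4 groups did not overlap within either pair and were ordered oppositely, with a difference of contrasts of -4.20 log2 (SE 0.65, limma adjusted p = 3.8e-04), and with a slide block -1.32 (limma adjusted p = 0.35). Probe CUST_1206_PI426483990 (contig JFC09933_1_code) had -4.70, -7.01 and -4.66 in poly(I:C) at 25 °C for 3 h, against -3.93, -4.26 and -4.23 in poly(I:C) at 15 °C for 24 h, and its poly(I:C) contrast was not called (-1.32, SE 0.62, limma adjusted p = 0.11). The array at -7.01 was not well above background and lay far from the other 2. In water it was at least 2.74-fold higher at 25 °C for 3 h than at 15 °C for 24 h, where no array had it well above background. Its difference of contrasts was called in the fit reported here (limma adjusted p = 0.0035) but not with a slide block (limma adjusted p = 0.56) or with normexp (limma adjusted p = 0.70).

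Set against water at the same temperature and time, most probes that responded in both settings moved the same way. Called higher with poly(I:C) than with water, here termed raised, were 1469 probes in both settings. Their median responses were 1.09 log2 at 25 °C for 3 h and 1.12 at 15 °C for 24 h. Called lower, or lowered, were 1619 in both, with medians of -0.94 and -0.92. The responses of the 2 settings share no array. Each crosses slides, 2 against 3 at 25 °C for 3 h and 1 against 2 at 15 °C for 24 h. Poly(I:C) and slide can therefore not be told apart in either response. With a slide block the responses had 2282 and 2610 calls, against 6281 and 5049 without it. Probes raised or lowered in both were not recounted with the block. The background of the response at 25 °C for 3 h was 47% called, 17.7% raised and 29.3% lowered, and that of the response at 15 °C for 24 h was 37.7%, 18.9% and 18.8%. Among the 1469 raised in both, 317 were higher and 306 lower at 25 °C for 3 h in the direct contrast, 42.4% in either direction. Among the 1619 lowered in both, 261 were higher and 451 lower, 44% in either direction. The direct contrast shares arrays with both responses, and its background was 34.1% called, 13.2% higher and 20.9% lower. The share lower among the probes raised in both was near that background. The difference of contrasts was called for 105 positive and 136 negative of the probes raised in both and for 117 positive and 128 negative of those lowered in both. Thus 1228 of 1469 and 1374 of 1619 probes did not pass the test of a difference in size. Of the 5318 probes called in neither response, 20.6% were still called in the direct contrast.

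Opposite responses were the exception. Raised at 25 °C for 3 h and lowered at 15 °C for 24 h were 47 probes, with medians of 0.70 and -0.78 log2, and 43 of them were higher in the direct contrast. Lowered at 25 °C for 3 h and raised at 15 °C for 24 h were 136, with medians of -0.68 and 0.63. In this second class the direct contrast called 89 lower and 1 higher, and the water groups differed by a median of 0.63 log2, higher at 25 °C for 3 h. Among all probes the direct contrast called 13.2% higher and 20.9% lower. Both classes were picked by responses on the same arrays, which moves the direct and water contrasts in these directions. Their values in those contrasts are therefore descriptions and no test. With a slide block 25 probes had opposite responses.

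Probe CUST_11286_PI426483990 (contig JFC07148_1_code) had the largest difference from water among the probes raised at 25 °C for 3 h and lowered at 15 °C for 24 h. It had -0.29, -0.58 and 0.39 in poly(I:C) at 25 °C for 3 h, against -1.59, -1.98 and -1.56 in water at the same temperature and time, a response of 1.55 log2 (SE 0.38, limma adjusted p = 0.0023). It had -3.63, -3.74 and -3.04 in poly(I:C) at 15 °C for 24 h, against -0.51, -1.04 and -0.77 in water there, a response of -2.70 (SE 0.38, limma adjusted p = 1.1e-05). All 12 arrays were well above background and no pair of compared groups overlapped.

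Probe CUST_11923_PI426483990 (contig JFC13148_1_code) was opposed in the same sense with closely grouped replicates. It had -0.73, -0.31 and -0.22 in poly(I:C) at 25 °C for 3 h and -2.73, -2.95 and -3.24 in poly(I:C) at 15 °C for 24 h, against -1.97 ± 0.11 and -1.83 ± 0.21 in the matching water groups (SD, n = 3 each). Water thus lay between the 2 poly(I:C) groups, and the responses were 1.55 log2 (SE 0.18) at 25 °C for 3 h and -1.14 (SE 0.18) at 15 °C for 24 h. CUST_6389_PI426483990 was opposed in the other sense, with responses of -2.04 (SE 0.46) at 25 °C for 3 h and 2.15 (SE 0.46) at 15 °C for 24 h. So was CUST_1206_PI426483990, with a response of -2.47 (SE 0.62) at 25 °C for 3 h and a level at least 1.24-fold above water at 15 °C for 24 h, where water had no array well above background.

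**Figure D3:**
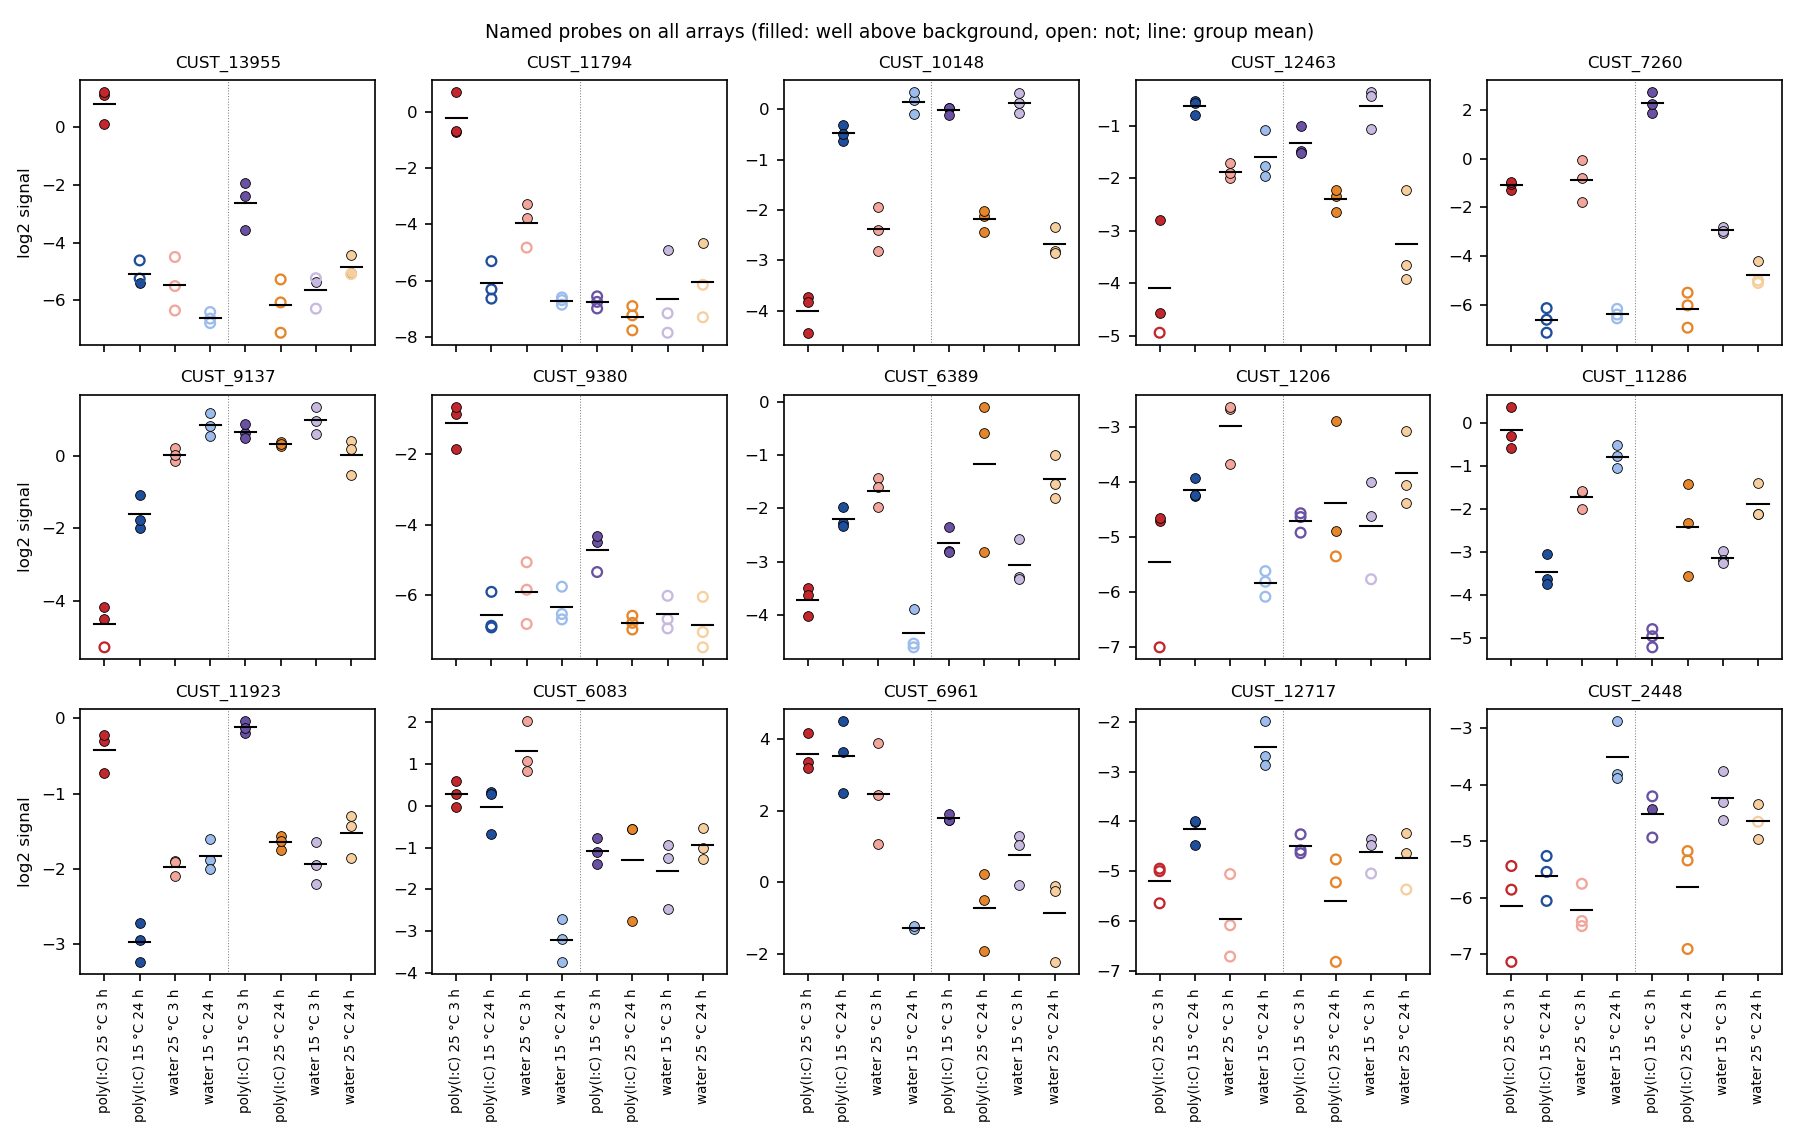
Log2 signal of the 15 named probes on every array, 1 panel per probe with its own vertical scale; filled points were well above background, open points were not, and lines are group means. The 4 groups left of the dotted line are those of the 2 contrasts, and CUST_9380 and CUST_13955 are bright on the 3 arrays of poly(I:C) at 25 °C for 3 h while CUST_7260 is bright at 25 °C for 3 h in poly(I:C) and water alike.

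The 6 other poly(I:C) arrays gave a second 3 h against 24 h contrast with temperature the other way round, poly(I:C) at 15 °C for 3 h minus poly(I:C) at 25 °C for 24 h, and it shares no array with the contrasts above. A probe that keeps its sign there has the order of time in both contrasts, and one that turns has the order of temperature. Slide cannot be told apart from either order. Slide 1 held the 15 °C arrays of both contrasts. The 25 °C arrays lay on slide 2 in the first contrast, and in the second 1 lay on slide 2 and 2 on slide 3. In this second contrast 4184 probes (31.3%) were called, 2155 higher (16.1%) and 2029 lower (15.2%). Of the 4557 probes called in the first contrast, 738 (16.2%) kept their sign and 1130 (24.8%) turned. This order was not stable, since 201 kept it and 168 turned with normexp, and 57 and 52 with a slide block. Across all 13377 probes the 2 contrasts had an r of 0.0039 and a rho of -0.13.

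Probes shared with water and probes with a called difference from water divided in opposite ways. The 2 classes overlap, since 44 higher and 67 lower probes belong to both. Of the 1479 probes called with the same sign in water, 175 (11.8%) kept their sign in the second contrast and 638 (43.1%) turned. Of the 1471 that were called in the difference from water with the same sign, 363 (24.7%) kept their sign and 214 (14.5%) turned, and of the 198 called with opposite signs in poly(I:C) and water, 79 (39.9%) kept it and 15 (7.58%) turned. That class of 198 numbered 128 without replicate 2 of water at 15 °C for 24 h, 65 when each contrast was fitted on its own groups, 20 with normexp and 6 with a slide block. Split by direction, 167 of 550 probes higher with a called difference (30.4%) were higher in the second contrast, against 16.1% of all probes, and 196 of 921 lower (21.3%) were lower, against 15.2%. Of the probes shared with water, 224 of 578 higher (38.8%) were lower in the second contrast and 414 of 901 lower (45.9%) were higher. Under quantile scaling the shared probes kept their sign for 181 and turned for 618, and those with a called difference kept it for 356 and turned for 150. With a slide block few calls were left: 10 shared probes kept their sign and 15 turned, and 15 with a called difference kept it and 6 turned.

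The difference from water had its own counterpart in the other arrays, the response at 15 °C for 3 h minus the response at 25 °C for 24 h, called for 1466 probes (11%), 643 positive (4.81%) and 823 negative (6.15%). Of the 806 probes with a positive difference from water, 137 (17%) were positive there and 55 (6.82%) negative. Of the 1624 with a negative difference, 130 (8%) were negative and 57 (3.51%) positive. Against the background shares, positive differences recurred more often than negative ones in the fit reported here. The balance of signs depended on the scaling. Median scaling gave 1286 positive and 949 negative differences from water, and 401 positive and 1155 negative in the counterpart. Recurrence was not split by sign under other settings, so whether this inequality holds there was not tested. Counted in both directions, 267 kept their sign and 112 turned, against 233 and 163 with median scaling, while 41 kept their sign and 4 turned with a slide block, and 30 and 1 with normexp. Over all probes the r was 0.045.

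**Figure D4:**
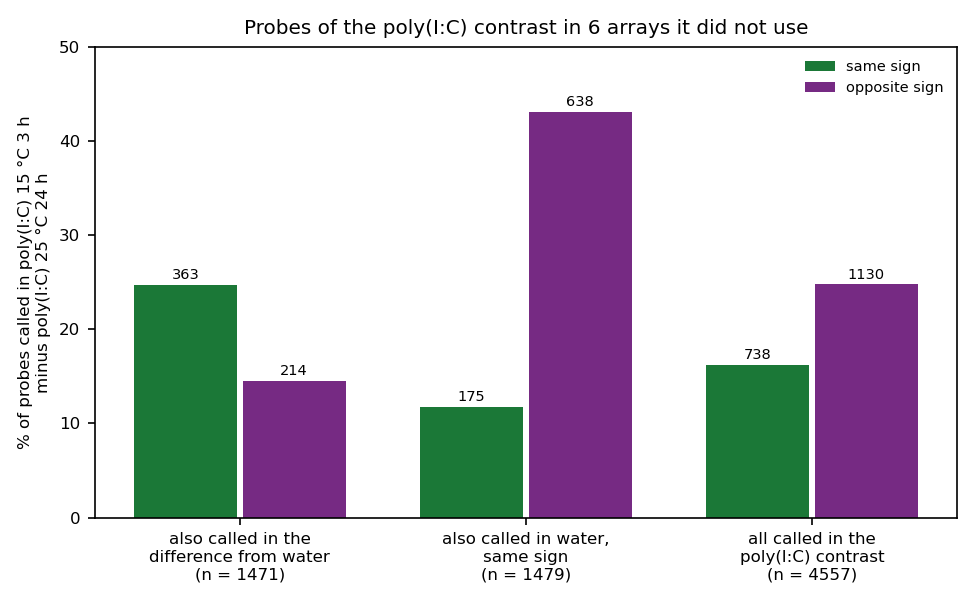
Share of probes called between the 2 poly(I:C) groups that were also called in poly(I:C) at 15 °C for 3 h minus poly(I:C) at 25 °C for 24 h, with the same sign (green) or the opposite sign (violet), and counts above the bars. Probes that also differed from water kept their sign more often than they turned (363 and 214), probes shared with water turned more often (638 and 175), and of all called probes 738 kept it and 1130 turned. The first 2 of these classes have some probes in common.

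The named probes fell on both sides. CUST_11923_PI426483990 had log2 signals of -0.04, -0.19 and -0.13 in poly(I:C) at 15 °C for 3 h, against -1.75, -1.56 and -1.63 in poly(I:C) at 25 °C for 24 h, higher at 3 h again by 1.53 log2 (SE 0.18, limma adjusted p = 4.3e-06). CUST_13955_PI426483990 had -3.56, -2.38 and -1.93, against -6.07, -5.27 and -7.12, and was at least 5.61-fold higher at 3 h. CUST_7260_PI426483990 had 1.89, 2.23 and 2.74, against -6.03, -5.50 and -6.94, and was at least 169-fold higher. It was therefore bright at 3 h in all 4 combinations of treatment and temperature, with -2.94 ± 0.14 in water at 15 °C for 3 h (SD, n = 3), and not marked well above background on the 24 h arrays except 1 of water at 25 °C.

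Other named probes turned. CUST_10148_PI426483990 had 0.03, 0.02 and -0.11 in poly(I:C) at 15 °C for 3 h, against -2.12, -2.43 and -2.02 in poly(I:C) at 25 °C for 24 h, a difference of 2.17 log2 (SE 0.22, limma adjusted p = 7.8e-07). The mean of this probe was at or below -2.19 in all groups at 25 °C and at or above -0.47 in all groups at 15 °C. CUST_11286_PI426483990 also turned, being at least 4.21-fold higher in poly(I:C) at 25 °C for 24 h than in poly(I:C) at 15 °C for 3 h, where no array had it well above background. CUST_9137_PI426483990 did not pass the test there (0.34, SE 0.29, limma adjusted p = 0.40), with all 6 arrays between 0.27 and 0.87.

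Probes whose target is a database sequence, and a small second set of contig probes, were higher at 25 °C for 3 h more often than the main contig set. Of 334 tested database probes, 91 were higher and 37 lower, with a median of 0.29 log2 and a range from -2.59 to 4.65, and 75 more were left out as dim. Of the 91 tested probes of the small contig set, 35 were higher and 10 lower, with a median of 0.53, and 2 were left out. The 12935 tested probes of the main contig set had 1629 higher and 2749 lower, with a median of -0.097. The surplus of higher calls in the first 2 sets held with quantile scaling (80 and 38, 24 and 11), median scaling (115 and 26, 41 and 6), normexp (50 and 13, 17 and 3) and a slide block (49 and 13, 18 and 4). In water the database probes had 61 higher and 18 lower and the small contig set 15 and 8, against 2146 and 1640 in the main contig set. For both of these sets the share higher in water was near the 16.6% of all probes, and the share lower was below the 12.5% of all. These sets were also brighter, with median log2 signals of 0.696 and 1.8, against -1.68 in the main contig set, and the part of brightness was not tested.

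By mean signal over all arrays, calls between the poly(I:C) groups ran from 18.1% in the dimmest of 4 equal classes of tested probes to 41.8% in the brightest. In the dimmest class 174 were higher and 433 lower, and in the brightest 793 were higher and 605 lower. The surplus of higher calls in the brightest class turned with quantile scaling, to 556 higher and 714 lower. In water the dimmest class had 727 higher and 152 lower, against 444 and 357 under quantile scaling. For 17 contigs with 2 tested probes each, the 2 probes' differences between the poly(I:C) groups had an r of 0.67 and a median gap of 0.13 log2. Both probes were called in 2 contigs, with the same sign in both. Only 1 of the 2 probes was called in 6 contigs, and neither in 9.

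**Figure D5:**
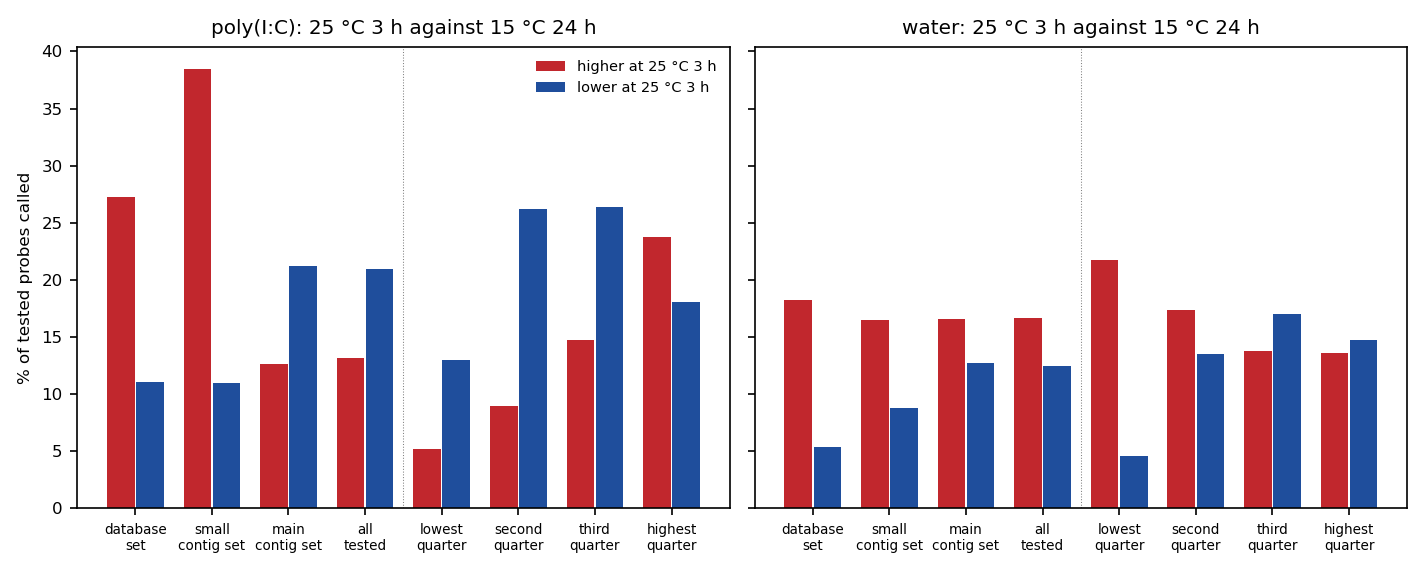
Percentage of tested probes called higher (red) or lower (blue) at 25 °C for 3 h than at 15 °C for 24 h, in poly(I:C) (left) and in water (right), by probe set and, right of the dotted line, by level class of mean signal from the dimmest to the brightest. In poly(I:C) higher calls outnumber lower ones in the database set (91 and 37), the small contig set (35 and 10) and the brightest class, and lower calls outnumber higher ones in all tested probes.

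A last group of probes was called between the water groups and not between the poly(I:C) groups. Probe CUST_6083_PI426483990 (contig JFC21205_1_code) had 0.84, 1.08 and 2.03 in water at 25 °C for 3 h, against -3.73, -2.71 and -3.18 in water at 15 °C for 24 h, a difference of 4.53 log2 (SE 0.51, limma adjusted p = 9.6e-06). With poly(I:C) it had 0.60, -0.02 and 0.29 at 25 °C for 3 h and -0.68, 0.32 and 0.28 at 15 °C for 24 h, which overlapped. Its response to poly(I:C) was 3.18 (SE 0.51, limma adjusted p = 5.7e-05) at 15 °C for 24 h and was not called at 25 °C for 3 h (-1.03, limma adjusted p = 0.11).

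Probe CUST_6961_PI426483990 (contig JFC23726_1_code) behaved alike, with 2.45, 1.08 and 3.90 in water at 25 °C for 3 h, against -1.26, -1.31 and -1.22 in water at 15 °C for 24 h, and with poly(I:C) means of 3.58 ± 0.51 at 25 °C for 3 h and 3.54 ± 1.01 at 15 °C for 24 h (SD, n = 3 each). Its 3 water arrays at 25 °C for 3 h spread widely and still lay above the 3 at 15 °C for 24 h. The other 2 probes ran the opposite way. CUST_12717_PI426483990 (contig JFC06767_1_code) was at least 4.02-fold lower and CUST_2448_PI426483990 (contig JFC25397_1_code) at least 1.99-fold lower in water at 25 °C for 3 h, where no array had either well above background, as in poly(I:C) at 25 °C for 3 h. With poly(I:C), CUST_12717_PI426483990 was well above background on all 3 arrays at 15 °C for 24 h. It was thus lower at 25 °C for 3 h there too, at least 1.79-fold, but was not called (limma adjusted p = 0.087). CUST_2448_PI426483990 was not well above background in poly(I:C) at 15 °C for 24 h, so the poly(I:C) groups could not be compared for it. Of these 4 probes, CUST_6961_PI426483990 was called in water under every setting tried, the other 3 were not called with a slide block, and CUST_12717_PI426483990 and CUST_2448_PI426483990 were not called with normexp either.

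How far the slides alone could move probes was visible in the 2 groups that spanned slides. In water at 15 °C for 3 h, the array on slide 2 differed from the 2 on slide 1 by a median of 0.238 log2 per probe, and across probes this shift had an r of 0.027 with the poly(I:C) contrast, whose median size was 0.389 and which also set slide 2 against slide 1. In poly(I:C) at 25 °C for 24 h, the 2 arrays on slide 3 differed from the array on slide 2 by a median of 0.211 log2, and this shift had an r of 0.38 with the water contrast, whose median size was 0.344 and which also set slide 3 against slide 2. Each shift rests on 1 array against 2, and holds the difference between those samples as well as between slides.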

How the data were processed

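The deposited scanner files give a linear spot intensity, which Agilent Feature Extraction had corrected for background (version 10.7.3.1 per the file headers, 9.5.3.1 per the submitters' processing notes) without scaling between arrays. The deposited value table holds log2 values, and 100% of them lay within 0.02 log2 of the values used here once 1 constant per probe was removed; the centring of each probe is unknown. After removal of control spots and of 2 to 22 outlier-marked spots per array, spots of the same probe were averaged on the log2 scale and each array's 75th percentile was subtracted. Tested probes were well above background on every array of 1 or more groups.

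In R 4.3.3, limma 3.58.1 was fitted by lmFit and eBayes to all 24 arrays with 1 mean per group (residual degrees of freedom 16, prior 2.65), and p-values were adjusted by Benjamini-Hochberg within each of the contrasts. The code was tested on simulated data. Alternatives were quantile and median scaling, normexp (offset 50, on gMedianSignal and gBGMedianSignal, since the mean signal that was planned is not used here), the deposited value table, a stricter filter or none, a slide block (fixed or random), a replicate block, an adjusted p under 0.01, another prior, array weights, only the compared groups, and leaving out each array in turn.

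Probes were named by a rule: at most 2 higher and 2 lower by size, called and with no overlap of replicates, for the poly(I:C) contrast, its calls shared with water, the difference of contrasts, opposite responses, and calls in water only. The comparison, the lists and the rule were chosen with earlier results of these data known. Gene and marker lists could not be applied, since no target matched a gene. The number of arrays limits the precision. The labels do not say whether replicate numbers pair the arrays. The correlation of deviations between same-numbered arrays was 0.057, 0.16 and 0.091 for the 2 poly(I:C) groups and 0.15, 0.1 and -0.039 for the 2 water groups. Between poly(I:C) and water of the same setting it lay between -0.16 and 0.037. Arrays with different numbers were not compared.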

Additional observations from a re-analysis of the deposited data

Results flagged for a closer look

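By limma's test, the poly(I:C) contrast minus the water contrast was called for 2430 probes. The counterpart in the other arrays (response at 15 °C for 3 h minus response at 25 °C for 24 h) was called for 1466. In the poly(I:C) contrast minus the water contrast, poly(I:C) and water of each setting lay on different slides. An unlike poly(I:C) effect and slide can therefore not be told apart there. With a slide block this difference was called for 190 probes, and with normexp for 295. Among the named probes this difference in log2 was 5.04 for CUST_9380_PI426483990, 4.72 for CUST_13955_PI426483990, 4.25 for CUST_11286_PI426483990, 3.09 for CUST_11794_PI426483990, 2.69 for CUST_11923_PI426483990, 2.41 for CUST_12717_PI426483990 and 2.18 for CUST_2448_PI426483990. It was -0.99 for CUST_10148_PI426483990, -2.21 for CUST_9137_PI426483990, -3.19 for CUST_12463_PI426483990, -3.70 for CUST_6961_PI426483990, -4.17 for CUST_1206_PI426483990, -4.20 for CUST_6389_PI426483990 and -4.21 for CUST_6083_PI426483990. These are fitted values. Those of CUST_9380_PI426483990, CUST_13955_PI426483990, CUST_11794_PI426483990, CUST_12717_PI426483990, CUST_2448_PI426483990 and CUST_1206_PI426483990 involve at least 1 group in which no array was well above background, so their size is not a measured one. The counterpart in the other arrays was called for 3 of the named probes, at 6.62 log2 for CUST_7260_PI426483990, 4.31 for CUST_13955_PI426483990 and 1.93 for CUST_11923_PI426483990, and the first 2 of these also rest on a group with no array well above background.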

How the results depend on the processing

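No alternative reversed a named probe's difference in the contrast that named it. The probes were picked from these same data for large called differences, so this is no independent check. Their values in other contrasts were not followed. Of 328 values of the 15 named probes under the alternatives, 319 kept their call and 9 lost it, 4 with normexp and 5 with a slide block, and none by leaving out an array; the cause was not tested. With normexp the calls numbered 1447 in the poly(I:C) contrast, 774 in water, 295 in the difference of contrasts, 1091 in the second poly(I:C) contrast, 180 in the second difference, 2603 in the response at 25 °C for 3 h and 2216 in that at 15 °C for 24 h. A slide block gave 1430, 296, 190, 280, 750, 2282 and 2610 in the same order, and with the slide as a random block (correlation 0.0554) the difference of contrasts had 1530. At an adjusted p under 0.01 the first 5 numbered 2940, 2212, 992, 2520 and 655. The probes called without a slide block had median sizes of 0.747, 0.786, 1.01, 0.748, 0.978, 0.874 and 0.893 log2, in the order of contrasts above. With the block these were 0.735, 0.612, 0.883, 0.589, 0.915, 0.777 and 0.944, smaller in all but the last. Only the compared groups gave 1842 in water, and array weights gave 2634 in the second difference. Leaving out 1 array gave 3619 to 4069 in the poly(I:C) contrast, 2832 to 3636 in water, 1853 to 2560 in the difference, 3081 to 4011 in the second poly(I:C) contrast and 970 to 1940 in the second difference, where 970 was without replicate 3 of water at 15 °C for 3 h. For the 2 responses it gave 5419 to 6137 and 4349 to 4528. Principal components were computed anew for each setting and not matched between settings, and scores also depend on the number and spread of the probes used. The gaps are therefore not on a common scale. The gap between the poly(I:C) groups on component 2 was 5.96 with normexp. That on component 3 was 35.3 with normexp, 47.5 with no filter and 40.2 for the 10418 probes well above background on all 24 arrays, against 51.1 in the fit reported here. With the replicate block, although the labels do not say that the numbers pair the arrays, the poly(I:C) contrast had 4463 calls, water 3776, the difference 2316, the second poly(I:C) contrast 4062 and the second difference 1364. Quantile scaling gave 1889 higher and 2103 lower in water and 871 positive and 1062 negative in the difference. In the second poly(I:C) contrast median scaling gave 1679 higher and 2563 lower, and in the second difference 401 positive and 1155 negative (quantile 437 and 1096). The slides cannot be told apart from the groups, and the fit with a slide block rests on 2 groups that span slides.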
